A study of Mus musculus with 52 samples.

Results

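The interferon response genes are 41 mouse genes chosen by symbol, without measured values in the rule but with earlier results of these data known. They are 4 signalling and transcription factors (Stat2, Irf1, Irf7, Irf9), 7 ubiquitin-like, ubiquitin and ADP-ribosylation factors, 9 RNA sensors and nucleic acid enzymes, 7 antiviral effectors, 10 interferon-induced GTPases of the IRG and GBP families, and 4 other interferon-induced genes. Of the 41 symbols, 40 had a row among the 14626 genes analysed, and Ifi44 was not analysed here. The cells were CD8+ T cells from spleens of OT-I mice, whose transgenic receptor recognises an ovalbumin peptide. Their RNA was measured by bulk MARS-seq, which reads the 3′ ends of transcripts. The cells grew in wells coated with the chemokine CCL21 and ICAM1, an adhesion molecule that T cells bind through LFA-1, or in uncoated wells, and the study asked how this coating modulates proliferation and cytotoxicity.

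Bead-activated cells received beads with antibodies to CD3 and CD28 together with IL-2, and were taken at day 3 (5 coated and 3 uncoated libraries) and at day 7 (4 coated and 5 uncoated). DC-activated cells were grown with ovalbumin-loaded dendritic cells (DCs) selected by CD11c from C57BL/6 spleens, and were taken at day 3 (9 coated libraries of 5 M numbers, 7 uncoated libraries of 4 M numbers) and at day 4 (5 coated and 5 uncoated). Cells of day 0 were freshly isolated and had no activation (9 libraries). All 9 groups come from OT-I mice. The M number in a title serves here as the replicate, and the labels explain neither it nor the 30 or 120 in the titles of DC libraries. All DC libraries of day 4 are titled DCs120, and those of day 3 DCs30 or DCs120, so day and title number are mixed between DC days. The labels give IL-2 for the bead cultures and do not name it for the DC cultures, so kind of activation and IL-2 cannot be told apart. DC-activated samples may also hold RNA of the DCs themselves.

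Interferons alpha and beta act through the receptor chains Ifnar1 and Ifnar2 and the kinases Tyk2 and Jak1, which phosphorylate STAT proteins, among them Stat2. With Irf9, Stat2 forms part of a complex that binds the interferon-stimulated response element (ISRE) in promoters. Interferon gamma, which activated CD8+ T cells secrete, acts through Ifngr1 and Ifngr2 and leads to binding of the gamma-activated site (GAS), and it induces Irf1 and the IRG and GBP GTPases strongly.

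Promoter windows from RefSeq (GRCm38.p6; 250 bases before to 50 after a start site) were matched by symbol for 32 of the 41 members. The ISRE was searched as GAAANNGAAA and the GAS as TTCNNNGAA, on both strands. The ISRE letters were in a window of 16 of the 32 members (50.0%), against 1079 of all 27025 genes (3.99%). The GAS letters were in 13 members (40.6%), against 2582 genes (9.55%), and both motifs were in 7 members (21.9%), against 166 genes (0.614%). The 5 windows below are shown for Stat2, Isg15, Igtp and Gbp2, on which results below turn, and for Ifit3, an antiviral effector with 2 matches whose level was low in most samples. Each of them holds a match. Results below also turn on Irf7, Irf9 and Dtx3l, whose windows held 0 ISRE and 0 GAS matches and are not shown. Capitals mark each ISRE or GAS match on either strand, and overlapping matches form 1 run.
Stat2 promoter, chr10:128270248-128270547, plus strand: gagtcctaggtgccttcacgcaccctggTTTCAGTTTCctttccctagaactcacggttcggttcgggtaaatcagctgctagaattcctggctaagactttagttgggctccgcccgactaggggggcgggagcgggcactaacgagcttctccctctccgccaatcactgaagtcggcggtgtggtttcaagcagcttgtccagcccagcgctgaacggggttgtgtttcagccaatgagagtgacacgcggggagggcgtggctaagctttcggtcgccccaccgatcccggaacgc
Isg15 promoter, chr4:156200769-156201068, minus strand: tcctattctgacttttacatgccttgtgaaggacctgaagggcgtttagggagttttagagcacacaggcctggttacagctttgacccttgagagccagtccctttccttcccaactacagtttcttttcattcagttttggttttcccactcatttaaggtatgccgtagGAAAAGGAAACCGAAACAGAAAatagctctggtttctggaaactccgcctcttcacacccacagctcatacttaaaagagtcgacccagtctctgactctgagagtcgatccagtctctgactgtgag
Ifit3 promoter, chr19:34583279-34583578, plus strand: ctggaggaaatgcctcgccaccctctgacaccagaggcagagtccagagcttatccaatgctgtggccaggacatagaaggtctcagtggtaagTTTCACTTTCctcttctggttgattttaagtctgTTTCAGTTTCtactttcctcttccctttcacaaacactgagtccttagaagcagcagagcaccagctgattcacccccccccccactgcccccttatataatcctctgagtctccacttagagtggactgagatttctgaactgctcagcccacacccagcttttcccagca
Igtp promoter, chr11:58199306-58199605, plus strand: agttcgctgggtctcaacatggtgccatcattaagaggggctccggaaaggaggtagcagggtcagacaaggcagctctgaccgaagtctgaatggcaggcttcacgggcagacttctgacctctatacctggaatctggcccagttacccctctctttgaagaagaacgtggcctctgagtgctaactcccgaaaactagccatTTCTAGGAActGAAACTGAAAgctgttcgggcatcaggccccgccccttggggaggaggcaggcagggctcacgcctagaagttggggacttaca
Gbp2 promoter, chr3:142620413-142620712, plus strand: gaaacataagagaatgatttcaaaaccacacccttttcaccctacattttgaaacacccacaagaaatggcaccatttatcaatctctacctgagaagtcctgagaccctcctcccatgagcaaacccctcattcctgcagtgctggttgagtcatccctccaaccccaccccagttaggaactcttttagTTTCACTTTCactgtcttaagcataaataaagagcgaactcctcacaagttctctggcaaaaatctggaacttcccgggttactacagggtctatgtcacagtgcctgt
Isg15 holds 3 overlapping ISRE matches that begin 78, 72 and 66 bases before the start site, and Ifit3 holds 2, at 156 and 122 bases before it. In Igtp a GAS match 45 bases before the start stands next to an ISRE match at 34 bases. Gbp2 has 1 ISRE match at 59 bases and Stat2 has 1 at 222 bases before the start. A match describes letters only. By position, 9 of the 41 members lie on chromosome 11, among them Igtp (chr11:58199556-58207591, plus strand, GENCODE vM21 on GRCm38), and 6 lie on chromosome 3, among them Gbp2 (chr3:142620602-142638008, plus strand).

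Library totals ran from 382924 to 4641802 counts. The CD8 T cell markers of the list (Cd8a, Cd8b1, Cd3d and others) summed to 3845 CPM or more in every sample, where CPM is the count scaled to a common library size. Day 0 libraries also held transcripts of other cells. Their erythroid markers summed to 25609 to 135620.0 CPM, MHC class II genes to 10920.0 to 20462 CPM, B cell markers to 3792 to 7775 CPM and myeloid markers to 733 to 3179 CPM. No cultured sample exceeded 1445 CPM of MHC class II or 1176 CPM of erythroid markers, both in uncoated DC day 4, M number 8. Siglech, a plasmacytoid DC marker, and Cd209a were at 0 in every cultured sample, and Clec9a and Itgax reached at most 1.13 and 4.11 CPM there. Batf3, which activated T cells express as well, made up most of the DC marker sum in DC cultures, and Ighm made up most of the B cell sum. Members with close relatives (Ifit1 and Ifit3 with their neighbours, Oas1a, Irgm1 and Irgm2, the GBPs) may share 3′ reads, so their single values are uncertain. The annotated span of Irgm2 (chr11:58199618-58222782, plus strand) covers most of Igtp (chr11:58199556-58207591, plus strand). Reads there may be ambiguous between Irgm2 and Igtp, and the effect on their counts was not tested.

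Across the 9 groups, the summed level of the members was highest in uncoated bead cells of day 7 and lowest in coated DC cells of day 3. Samples are given here and below in the order of their M numbers. The summed level of the 40 members was 3079, 3050.0, 2953 and 3353 CPM in coated bead cells of day 7 and 3261, 3799, 5239, 4819 and 10522 CPM in uncoated ones. It was 3713, 3445, 3634, 3828 and 3793 CPM in coated against 4077, 3153 and 3469.9 CPM in uncoated bead cells of day 3. In DC cultures the sum was 1387, 1235, 1059.7, 1216 and 1395 CPM in coated cells and 1611, 1338, 1550.1 and 1748 CPM in uncoated cells of day 3, and 1300.0, 1385, 1223, 1460.2 and 1502 CPM in coated cells and 1944, 2143, 1706, 2135 and 2193 CPM in uncoated cells of day 4. At day 0 it ran from 1869 to 2727 CPM with a median of 2392 CPM. Every DC-activated sample of day 3 lay below every bead-activated and every day 0 sample, and coated and uncoated cells overlapped in each pair except DC day 4. Uncoated bead M number 5 of day 7 stood apart from all others.

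**Figure D1:**
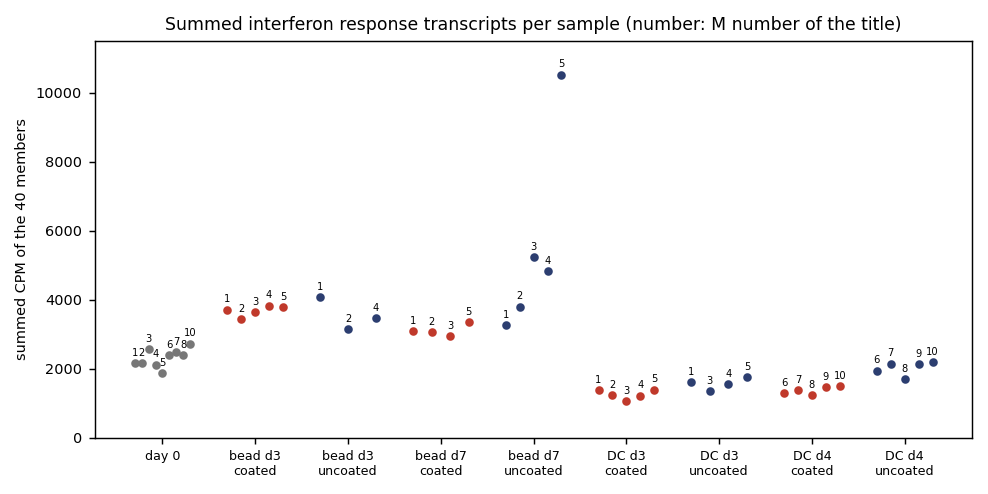
Summed CPM of the 40 members (vertical axis) in each sample, by group (horizontal axis: grey day 0, red coated, blue uncoated); the number over a point is its M number. At DC day 4 the 5 coated samples (1223 to 1502 CPM) lie below the 5 uncoated ones (1706 to 2193 CPM), and uncoated bead day 7 spreads from 3261 to 10522 CPM.

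By group means, 28 of the 40 members had their highest level in uncoated bead cells of day 7, and 22 had their lowest in coated DC cells of day 3. The members did not follow 1 pattern. The GTPases Igtp, Iigp1, Irgm2, Gbp2 and Gbp4 were low at day 0 and high at bead day 3. Gbp5 was above day 0 at bead day 3 too, but its highest group mean was in uncoated DC cells of day 3. The group means of Isg15, Irf7, Oasl1, Oasl2, Isg20 and Rnf213, named after their values were seen, were lower at day 3 after either activation than at day 0. Their means in uncoated bead cells of day 7 were above day 0, but single libraries there spread widely, as given for Isg15 and Irf7 below. In bulk RNA, fewer cells of a type and less RNA per cell cannot be told apart, which holds for every level here.

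**Figure D2:**
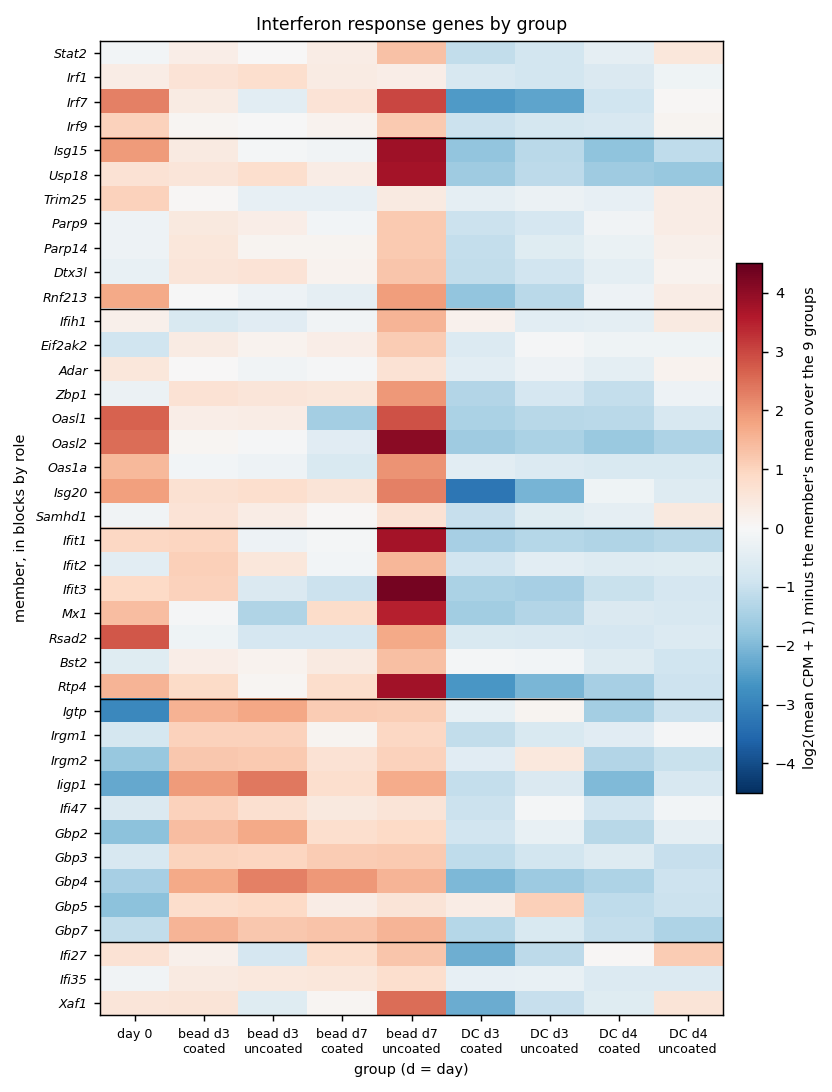
Level of each of the 40 members (rows, in blocks by role: signalling, ubiquitin-like, nucleic acid enzymes, antiviral effectors, GTPases, other) in the 9 groups (columns), as log2(mean CPM + 1) minus the member's own mean over the groups (red above it, blue below it). Uncoated bead cells of day 7 hold the highest mean of 28 members and coated DC cells of day 3 the lowest mean of 22.

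At DC day 4 the coating went with lower levels across most of the set. Of 28 members tested, 16 were lower in coated cells and 0 were higher at an adjusted p under 0.05, where 8.92% of all 9159 genes tested were lower and 9.46% were higher. The median log2 fold change, coated over uncoated, was -0.62 over the 28 members and 0.00 over all genes, and 24 of the 28 were negative. At an unadjusted p under 0.05, 3 members were higher and 20 lower by edgeR, and DESeq2 called 0 higher and 17 lower. All 4 signalling factors fell, as did 3 of 6 ubiquitin-like and ADP-ribosylation factors, 4 of 6 RNA sensors and nucleic acid enzymes, 3 of 8 GTPases and 2 of 3 other genes, while 0 of 1 antiviral effector tested (Bst2) was called. Groups did not overlap for 9 of the 28 members, all lower; of all genes, 5.27% were lower and 6.53% higher without overlap.

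Stat2, which brings a transactivation domain to the complex with Irf9, had 26.8, 19.9, 21.97, 29.5 and 29.03 CPM in coated cells against 49.4, 48.7, 47.7, 48.98 and 47.7 CPM in uncoated cells. Each coated value was below each uncoated one, and the uncoated values lay close together (log2 fold change -0.96, SE 0.14, adjusted p = 0.0015). Irf9, the DNA-binding subunit, had 30.2, 23.9, 31.02, 33.6 and 37.8 CPM in coated cells and 48.5, 56.3, 60.05, 55.2 and 63.98 CPM in uncoated cells, again without overlap (log2 fold change -0.89, SE 0.15, adjusted p = 0.00183). Irf7, itself an interferon-induced activator of interferon genes, had 14.5, 15.6, 11.6, 15.9 and 20.3 CPM in coated cells against 30.7, 31.4, 23.9, 30.96 and 38.97 CPM in uncoated cells (log2 fold change -1.03, SE 0.17, adjusted p = 0.0019). Coated cells were lower in each M number, as they were for Irf1, which interferon gamma induces. Irf1 had 137, 148, 194, 157 and 137 CPM in coated cells and 209, 227, 269, 189 and 182 CPM in uncoated cells and overlapped between the groups (log2 fold change -0.50, SE 0.14, adjusted p = 0.0188).

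Among the enzymes of nucleic acids, Samhd1, which degrades deoxynucleotides, had 208, 195, 169.95, 249.6 and 292 CPM in coated cells and 404, 399, 315, 435 and 474 CPM in uncoated cells (log2 fold change -0.88, SE 0.14, adjusted p = 0.00172). Zbp1, a sensor of Z-form nucleic acid, had 38.4, 40.9, 29.7, 45.5 and 52.7 CPM in coated cells against 75.2, 75.4, 55.1, 85.01 and 83.2 CPM in uncoated cells (log2 fold change -0.88, SE 0.15, adjusted p = 0.0021). For both, all coated values were below all uncoated ones. Adar, which edits RNA, and Ifih1, a cytoplasmic sensor of viral RNA, fell by 0.64 and 0.99 on the log2 scale (adjusted p = 0.00635 and 0.0267). Eif2ak2, the RNA-activated kinase PKR, had 22.8, 19.9, 19.4, 13.6 and 14.2 CPM in coated cells and 17.5, 21.2, 16.5, 20.8 and 15.1 CPM in uncoated cells, which overlapped (log2 fold change -0.03, SE 0.18, adjusted p = 0.935).

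Of the GTPases, Igtp, a member of the IRG family, had 83.3, 92.1, 98.2, 78.6 and 83.7 CPM in coated cells and 112, 136, 112, 132 and 141 CPM in uncoated cells without overlap (log2 fold change -0.56, SE 0.11, adjusted p = 0.00414). Gbp2, a guanylate-binding protein, had 27.3, 32.98, 17.4, 37.3 and 38.5 CPM in coated cells against 52.2, 59.3, 40.3, 63.6 and 62.2 CPM in uncoated cells and did not overlap either (log2 fold change -0.88, SE 0.18, adjusted p = 0.00546). Irgm1 fell as well (log2 fold change -0.52, SE 0.17, adjusted p = 0.0466), and its call held in 2 of 10 fits that left out 1 library. Gbp3 and Gbp7 had positive log2 fold changes of 0.45 and 0.33 that were not called, and Gbp5 and Gbp4 were negative and not called either. Xaf1, which binds the apoptosis inhibitor XIAP, had the most negative log2 fold change of the called members, with 6.703, 7.11, 5.82, 14.1 and 6.75 CPM in coated cells and 25.5, 22.8, 12.3, 18.02 and 15.7 CPM in uncoated cells, where coated M number 9 lay above the lowest uncoated value (log2 fold change -1.28, SE 0.26, adjusted p = 0.00473). Ifi27 had 129, 109, 60.7, 180.5 and 155 CPM in coated cells against 265, 314, 164, 318 and 308 CPM in uncoated cells, with coated cells lower in every M number and 1 of them within the uncoated range (log2 fold change -1.13, SE 0.26, adjusted p = 0.0167).

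Trim25, a ubiquitin ligase of the RNA-sensing pathway, Parp14 and Dtx3l, which act in ADP-ribosylation and its ubiquitin ligase partner, fell by 0.75, 0.53 and 0.70 on the log2 scale (adjusted p = 0.00822, 0.0267 and 0.036). Isg15, the ubiquitin-like modifier, was low in both groups, with 4.47, 9.098, 5.82, 3.64 and 6.08 CPM in coated cells and 8.902, 8.304, 11.5, 10.1 and 9.89 CPM in uncoated cells (log2 fold change -0.72, SE 0.27, adjusted p = 0.0719). Bst2, which tethers virions to the cell surface, had 174, 218, 181, 138 and 181 CPM in coated cells and 129.5, 171, 118, 136 and 162 CPM in uncoated cells (log2 fold change 0.29, SE 0.13, adjusted p = 0.118). Its coated values were higher in every M number while the groups overlapped.

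Of the 16 calls at DC day 4, 10 held in every fit that left out 1 library (Stat2, Samhd1, Irf9, Irf7, Zbp1, Igtp, Xaf1, Gbp2, Adar and Trim25). With the M number as a block, 19 members were lower and 2 were higher, Bst2 and Isg20. Leaving out coated M number 9 gave 2 higher members, and leaving out uncoated M number 7 gave 1. MHC class II genes summed to 118, 109, 318, 164 and 145 CPM in coated cells and 176, 199, 1445, 302 and 172 CPM in uncoated cells, highest in M number 8 of each group, and without both libraries of M number 8, 15 members were lower and 0 higher. Erythroid markers summed to 9.38, 11.4, 476, 42.7 and 26.3 CPM in coated cells and 16.6, 13.4, 1176, 605 and 44.8 CPM in uncoated cells. DC markers summed to 22.7 to 72.4 CPM in coated cells and 21.5 to 30.96 CPM in uncoated cells, mostly from Batf3 (log2 fold change 0.95, SE 0.27, adjusted p = 0.0275). The part of other cells in the difference was not tested.

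**Figure D3:**
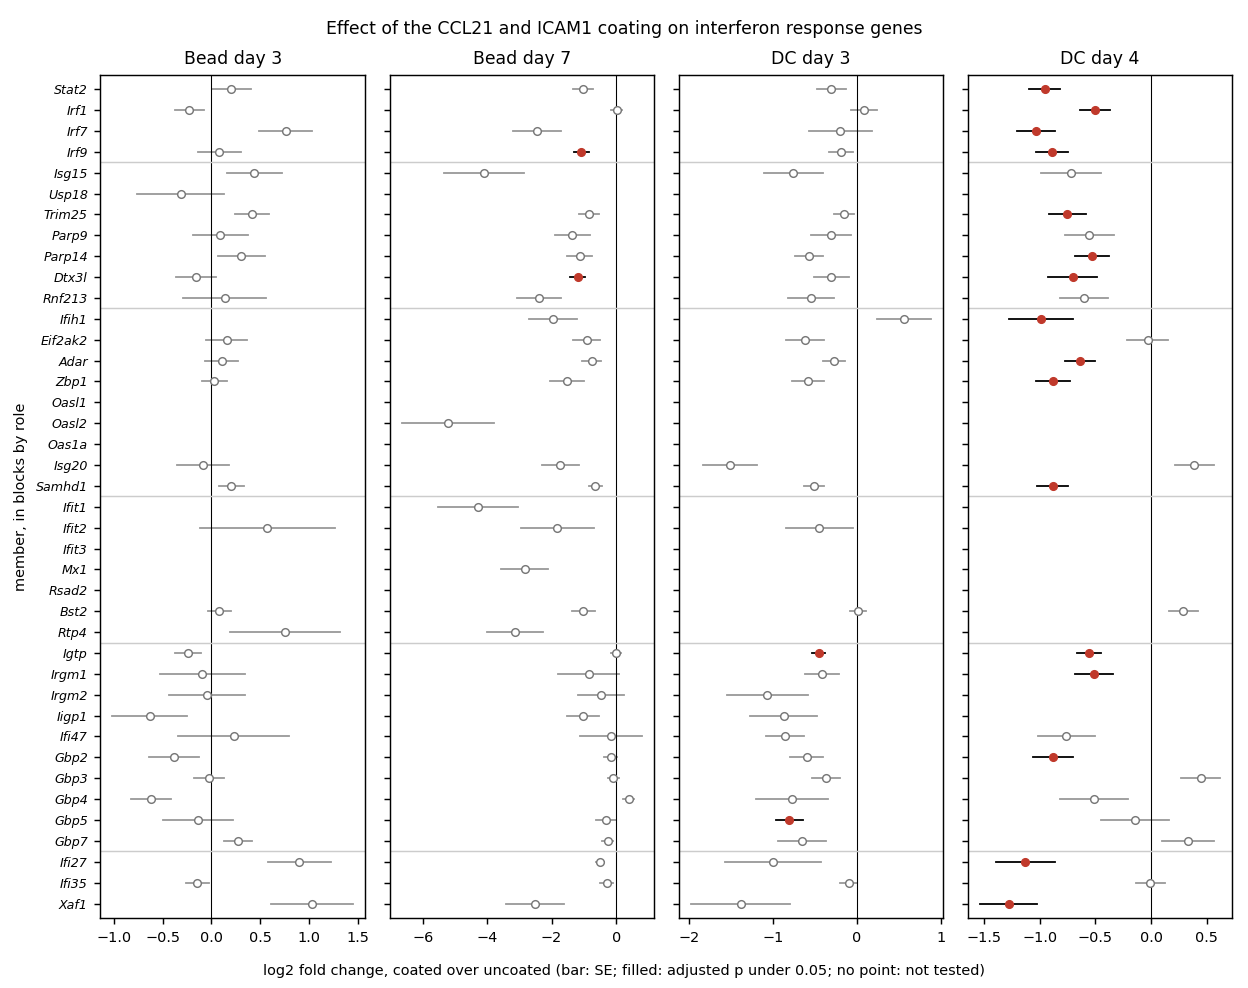
Log2 fold change, coated over uncoated (horizontal axes, each with its own range; bars are SE), of each member tested (rows, in blocks by role) in the 4 coating comparisons; filled points have an adjusted p under 0.05. At DC day 4, 16 of 28 members are filled, all negative, against 2 of 31 at DC day 3, 0 of 32 at bead day 3 and 2 of 35 at bead day 7, where standard errors are wide.

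At DC day 3 the set leaned the same way with fewer calls. Of 31 members tested, 2 were lower in coated cells, Igtp and Gbp5, and 0 were higher, where 0.224% of all 10245 genes were lower and 0.166% were higher. The median log2 fold change was -0.51 over the members and 0.00 over all genes, 28 of the 31 were negative, and 0 were higher and 16 lower at an unadjusted p under 0.05, and DESeq2 called 0 higher and 5 lower. Groups did not overlap for 4 members, all lower; of all genes, 1.70% were lower and 2.93% higher without overlap. Igtp had 203, 196, 182, 206 and 220.1 CPM in coated samples, M numbers 1 to 5, and 244, 247, 302 and 295 CPM in uncoated samples, M numbers 1, 3, 4 and 5. No summed values overlapped (log2 fold change -0.46, SE 0.08, adjusted p = 0.0256). Single Igtp libraries did, with 256.6 CPM in coated DCs120 M number 5 and 193.3 CPM in uncoated DCs30 M number 1. Gbp5, which is needed for inflammasome responses in mouse macrophages, had 14.9, 14.7, 13.98, 19.4 and 22.4 CPM in coated samples and 35.5, 24.5, 28.1 and 29.00 CPM in uncoated samples, again without overlap (log2 fold change -0.81, SE 0.16, adjusted p = 0.041).

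Samhd1 had 182, 136, 117, 127 and 171 CPM in coated samples and 223, 170.3, 191 and 240.1 CPM in uncoated samples of DC day 3, and Zbp1 had 44.8, 25.2, 20.1, 36.4 and 48.1 CPM in coated DC samples against 56.1, 45.2, 52.8 and 55.99 CPM in uncoated DC samples. For both, coated values were lower in each shared M number while the groups overlapped, and neither was called (adjusted p = 0.0883 and 0.223). Stat2 had 17.3, 13.6, 13.98, 18.2 and 13.5 CPM in coated samples and 19.1, 18.8, 14.6 and 22.5 CPM in uncoated samples (log2 fold change -0.31, SE 0.17, adjusted p = 0.484). Irf7 was low throughout, with 7.65, 1.84, 1.75, 3.87 and 6.48 CPM in coated DC samples against 5.79, 3.76, 4.199 and 6.51 CPM in uncoated DC samples (log2 fold change -0.20, SE 0.37, adjusted p = 0.881). MHC class II genes summed to 111, 258, 159, 278 and 207 CPM in coated samples and 137, 265, 248 and 136 CPM in uncoated samples, which overlapped. B cell markers summed to 436 to 536 CPM in coated samples and 569 to 666 CPM in uncoated samples, and DC markers to 358 to 434 CPM in coated samples and 205 to 344 CPM in uncoated samples, neither with overlap. Of the 4 B cell markers tested, 1 was called lower, Ighm (log2 fold change -0.41, SE 0.07, adjusted p = 0.0271), and Batf3, the 1 DC marker tested, was not called (log2 fold change 0.40, SE 0.13, adjusted p = 0.243). The part of other cells in the difference was not tested. The titles are unevenly spread here, since coated M number 3 has a DCs30 library alone and uncoated M number 3 a DCs120 library alone. Counts were added unscaled, so deeper libraries weigh more. Coated M numbers 4 and 5 had 382924 and 1599458 counts in DCs120 and 2184019 and 2129429 in DCs30. Uncoated M numbers 4 and 5 had 3070294 and 4513513 counts in DCs120 and 1411950 and 1924134 in DCs30. Coated M number 2 and uncoated M number 1 went the other way. Most members were higher in DCs120 libraries, as given below, so title number is mixed into the summed values. With single libraries and the title number as a covariate, Gbp2 was the 1 member called lower; 0 were called in DCs120 libraries alone and 0 in DCs30 libraries alone. Counts of lower members were 4 without coated M number 1, 1 without uncoated M number 1, and 0 without coated M number 2, 3 or 4 or uncoated M number 4 or 5.

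The coating effects of DC day 4 and DC day 3 were compared directly, with DCs120 libraries at day 3. No member of 29 differed by edgeR (0 higher, 0 lower), where 2.14% of genes were higher and 1.20% lower; at an unadjusted p under 0.05, 3 were higher and 9 lower, and 2 were lower by DESeq2. As differences of log2 fold changes, Ifih1 was at -1.79 (SE 0.51, adjusted p = 0.0518), Irf9 at -0.72 (SE 0.23, adjusted p = 0.0935) and Irf7 at -1.54 (SE 0.50, adjusted p = 0.0935). The larger number of calls at day 4 is therefore not shown to be a larger effect on single members. Leaving out 1 library gave 2 lower members without day 4 coated M number 9, 1 higher and 1 lower without day 4 coated M number 10, 1 lower without day 3 coated M number 2, and 1 higher without day 3 uncoated M number 3.

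In bead-activated cells of day 3 the coating changed no member by the test. Of 32 members, 0 were higher and 0 lower by edgeR, where 0.0445% and 0.0556% of 8985 genes were, and 0 by DESeq2; at an unadjusted p under 0.05, 4 were higher and 1 lower. The median log2 fold change was 0.09. Groups did not overlap for 3 members that were higher and 1 that was lower, against 5.65% and 2.89% of all genes. Irf7 had 44.6, 23.96, 40.2, 35.3 and 51.5 CPM in coated cells, M numbers 1 to 5, and 30.3, 15.7 and 18.4 CPM in uncoated cells, M numbers 1, 2 and 4, with overlap (log2 fold change 0.76, SE 0.27, adjusted p = 0.343). Igtp had 596, 813, 882, 802 and 630.3 CPM in coated bead cells against 922, 737 and 871 CPM in uncoated bead cells, also with overlap (log2 fold change -0.24, SE 0.13, adjusted p = 0.523). Ifi27 had 171, 70.3, 121, 162 and 189 CPM in coated cells and 93.9, 56.9 and 67.5 CPM in uncoated cells, where coated M number 2 lay within the uncoated range (log2 fold change 0.90, SE 0.32, adjusted p = 0.377). Leaving out each library in turn, or both of M number 2, also gave 0 calls.

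The difference of the coating effect between DC day 3 and bead day 3 was called for 1 of 34 members, Samhd1, where 0.754% of genes were lower and 0.308% higher. The Samhd1 difference was -0.74 (SE 0.18, adjusted p = 0.0495). Behind it, coated and uncoated DC samples had the values given above, and coated bead cells had 486, 419.7, 408, 409 and 542 CPM in coated bead cells against 401, 351 and 384 CPM in uncoated bead cells. In bead cells every coated value was above every uncoated one, and in DC cells the coated value was the lower one in each of the 4 shared M numbers. For M number 3 this sets a coated DCs30 library against an uncoated DCs120 library. Samhd1 was higher in DCs120 libraries in 7 of 7 pairs, so title number and coating are mixed in the DC values. The call was lost with DESeq2 size factors (0 members lower), and it held in 5 of the 17 fits that left out 1 sample.

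In bead-activated cells of day 7 the uncoated libraries spread widely in members such as Isg15, Irf7 and Usp18, in which the coated libraries lay closer together. Of 35 members tested, 2 were lower in coated cells, Dtx3l and Irf9, and 0 were higher, where 1.41% of all 8696 genes were lower and 0.368% were higher. The median log2 fold change was -1.02 and 33 of 35 were negative; 1 was higher and 21 lower at an unadjusted p under 0.05. Groups did not overlap for 8 members, all lower, against 4.32% of all genes. Of the 40 members, 16 were above every coated library in uncoated M number 1, 20 in M number 2, 34 in M number 3, 28 in M number 4 and 37 in M number 5.

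Isg15 had 16.3, 31.7, 13.7 and 19.8 CPM in coated cells, M numbers 1, 2, 3 and 5, and 29.1, 54.4, 187, 255 and 1159 CPM in uncoated cells, M numbers 1 to 5. The lowest uncoated library lay within the coated range and the highest was far above all others (log2 fold change -4.10, SE 1.24, adjusted p = 0.118). Usp18, which removes Isg15 from proteins and damps the interferon alpha receptor, had 4.24, 5.601, 2.28 and 5.097 CPM in coated cells and 4.24, 4.19, 35.03, 42.3 and 192 CPM in uncoated cells. The first 2 uncoated libraries were at the coated level and the other 3 above it. Irf7 had 54.5, 49.2, 31.4 and 52.2 CPM in coated cells against 53.5, 98.7, 193, 252 and 642 CPM in uncoated cells, in the same order of libraries (log2 fold change -2.46, SE 0.75, adjusted p = 0.118). Ifit3, an antiviral protein with tetratricopeptide repeats, had 0, 1.24, 1.71 and 0 CPM in coated cells and 4.76, 0, 66.4, 5.198 and 252 CPM in uncoated cells, and M number 4 was low in it although high in Isg15. Mx1, a dynamin-like antiviral GTPase, had 2.83, 10.6, 7.42 and 7.65 CPM in coated cells and 15.4, 31.7, 42.9, 28.96 and 129 CPM in uncoated cells, with no overlap (log2 fold change -2.84, SE 0.72, adjusted p = 0.082).

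The 2 called members had a smaller spread. Dtx3l had 24.04, 20.5, 22.3 and 17.8 CPM in coated cells and 32.3, 37.7, 58.6, 39.4 and 66.9 CPM in uncoated cells, all of them higher (log2 fold change -1.19, SE 0.24, adjusted p = 0.0346). Irf9 had 65.1, 63.5, 43.96 and 61.8 CPM in coated cells and 70.4, 95.7, 144, 135 and 154 CPM in uncoated cells, also without overlap (log2 fold change -1.08, SE 0.23, adjusted p = 0.0399). Stat2 had 49.5, 39.8, 42.8 and 42.1 CPM in coated cells against 51.9, 64.6, 80.9, 69.8 and 159 CPM in uncoated cells, where no values overlapped either (log2 fold change -1.02, SE 0.30, adjusted p = 0.0912). The GTPases Igtp and Gbp2 overlapped between the groups. Igtp had 592, 573, 468 and 607 CPM in coated cells and 444, 604, 454, 518 and 717 CPM in uncoated cells (log2 fold change -0.01, SE 0.16, adjusted p = 0.981), and Gbp2 had 111, 116, 129 and 151 CPM in coated cells against 121, 129.8, 153, 86.1 and 205 CPM in uncoated cells (log2 fold change -0.17, SE 0.20, adjusted p = 0.652).

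Ifi47 and Irgm1, 2 IRG GTPases, split the libraries of bead day 7 in another way. Ifi47 had 24.8, 14.3, 174 and 142 CPM in coated cells and 99.5, 10.8, 164, 37.1 and 171 CPM in uncoated cells, and Irgm1 had 19.1, 14.9, 112 and 89.2 CPM in coated cells against 82.1, 10.2, 141, 37.1 and 248 CPM in uncoated cells. Both were low in coated M numbers 1 and 2 and in uncoated M numbers 2 and 4. A first principal component was taken over the most variable genes of these libraries, which may include members. It held 42.8% of the variance of those genes. On it, coated M numbers 1 and 2 and uncoated M numbers 2 and 4 had scores of -28.0, -28.9, -31.4 and -2.55. Coated M number 5 had -2.94, and the other 4 libraries were above 0.

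The count of lower members at bead day 7 moved with single libraries and with the test. It was 12 without uncoated M number 1, 5 without M number 2, 0 without M number 3, 1 without M number 4 or 5, and 0 without any 1 of the 4 coated libraries; DESeq2 called 18. MHC class II genes summed to 86.3, 66.6, 46.2 and 57.98 CPM in coated cells and 43.9, 45.5, 205, 456 and 54.4 CPM in uncoated cells, and erythroid markers to 15.6, 8.71, 13.1 and 12.7 CPM in coated cells and 9.53, 11.97, 487, 821 and 7.15 CPM in uncoated cells. NK cell markers, nearly all Eomes, which activated CD8 T cells express as well, summed to 572, 480.4, 410.5 and 658 CPM in coated cells and 282, 427, 218, 250.2 and 219 CPM in uncoated cells, and Eomes was called higher in coated cells (log2 fold change 0.90, SE 0.20, adjusted p = 0.0479). The part of other cells in the spread was not tested. Uncoated M number 5 had the highest value of 36 of the 40 members at bead day 7. The authors' deposited table calls 25 members lower at bead day 7 and 9 at DC day 4, of which 2 and 8 are among the calls here, and 0 at day 3 in either culture.

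**Figure D4:**
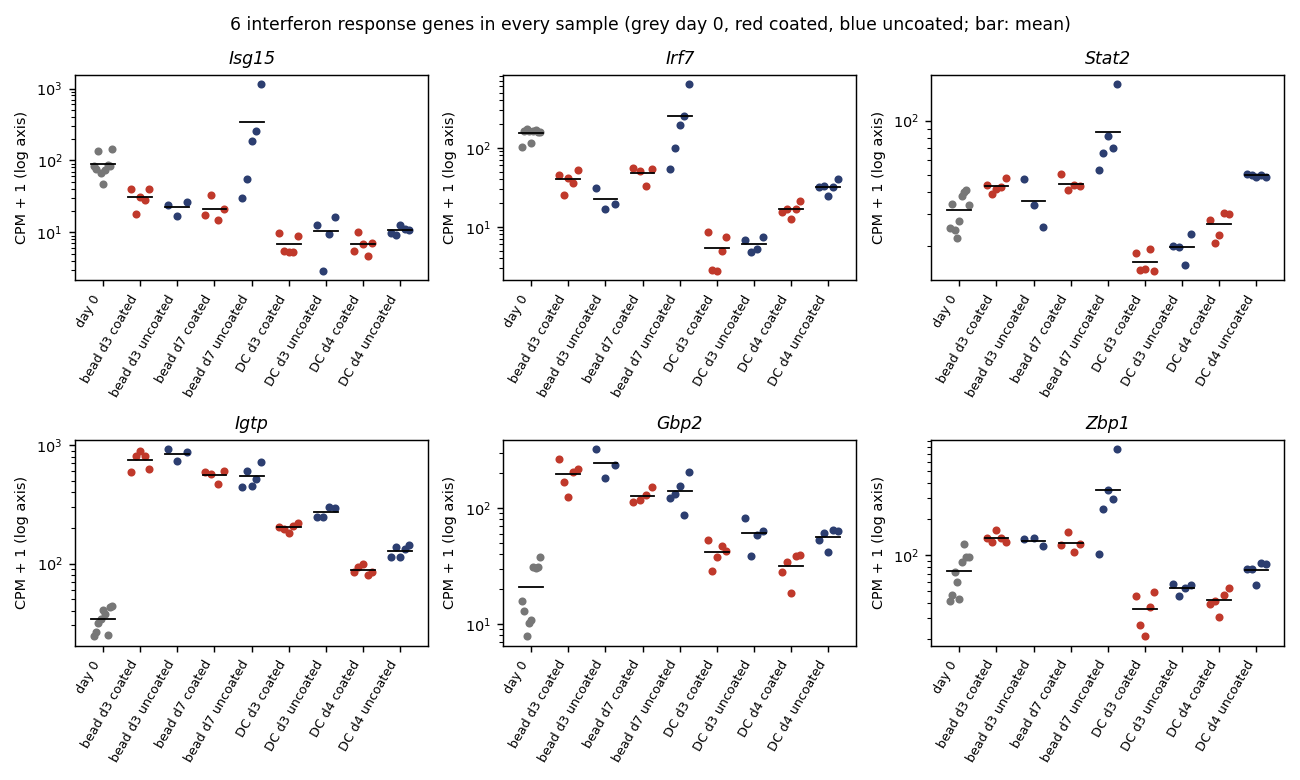
CPM + 1 (vertical axes, log scale) of Isg15, Irf7, Stat2, Igtp, Gbp2 and Zbp1 in every sample by group (grey day 0, red coated, blue uncoated; black bars are means). Isg15 ranges from 29.1 to 1159 CPM among the 5 uncoated bead libraries of day 7, whereas Igtp is at 444 to 922 CPM in bead-activated samples, against 23.3 to 42.9 CPM at day 0.

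Uncoated bead cells of day 3 were compared with day 0. Of 34 members, 17 were higher and 13 lower, where 29.9% and 35.0% of 8891 genes were, with a median log2 fold change of 0.39 over the members and -0.11 over all genes. All 10 IRG and GBP GTPases rose. Igtp had 922, 737 and 871 CPM at bead day 3, against 23.3, 32.9 and 42.9 CPM at day 0 (lowest, median and highest of 9), with no overlap (log2 fold change 4.60, SE 0.16, adjusted p = 1.18e-12). Gbp2 had 321, 179 and 233 CPM at bead day 3, against 6.78, 14.8 and 36.9 CPM at day 0 (log2 fold change 3.45, SE 0.33, adjusted p = 4.06e-07). Gbp4 had 63.6, 58.3 and 65.5 CPM at bead day 3, against 0, 2.81 and 10.2 CPM at day 0 (log2 fold change 3.73, SE 0.35, adjusted p = 8.52e-08), and Iigp1 had 56.01, 18.5 and 18.4 CPM at bead day 3, against 0, 0 and 1.705 CPM at day 0. Each lay wholly above day 0. Iigp1, near 0 at day 0, passed the filter through the bead samples alone, so its rise was fixed by the filter. Gbp4, Irgm2 and Gbp5, also low at day 0, dropped out of tests of DC cells against the same day 0 libraries. Their entry here therefore depended at least in part on the bead samples. The rises of these members are no separate support, and the count of 10 rests partly on them.

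Other members fell at bead day 3. Irf7 had 30.3, 15.7 and 18.4 CPM at bead day 3, against 102, 162 and 169 CPM at day 0 (log2 fold change -2.81, SE 0.23, adjusted p = 2.08e-08). Isg15 had 23.3, 15.7 and 25.6 CPM at bead day 3, against 46.2, 81.8 and 144 CPM at day 0 (log2 fold change -2.07, SE 0.31, adjusted p = 1.81e-05), and Rnf213, a large ubiquitin ligase, had 32.1, 18.5 and 12.3 CPM at bead day 3, against 63.96, 79.7 and 109.6 CPM at day 0 (log2 fold change -1.996, SE 0.25, adjusted p = 2.65e-06). None of these overlapped with day 0. Oasl1, Oasl2, Mx1, Rtp4 and Isg20 had log2 fold changes of -2.47, -2.71, -3.26, -1.58 and -1.21 (adjusted p = 2.23e-04, 3.5e-04, 0.00142, 0.00497 and 0.006). The part of the other-cell transcripts of day 0, given above, in these levels was not tested. Without uncoated bead M number 1, 11 members were higher at day 3.

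Uncoated bead cells of day 7 had 26 of 34 members higher than day 0 and 0 lower by edgeR (30.1% and 30.8% of 9281 genes; 0 members lower at an unadjusted p under 0.05 and 1 by DESeq2), with a median log2 fold change of 1.59 against -0.02 over all genes. All 8 GTPases and 4 antiviral effectors tested rose, where a member near 0 at day 0 is tested only if the bead samples hold enough counts. Igtp was 4.003 (SE 0.16, adjusted p = 3.65e-12) and Gbp7 was 2.60 (SE 0.24, adjusted p = 3.55e-08) on the log2 scale, and Bst2 had 409, 479, 531, 627 and 1385 CPM at bead day 7, against 137, 186 and 225 CPM at day 0 (log2 fold change 1.87, SE 0.22, adjusted p = 1.71e-06). Dtx3l rose as well (log2 fold change 1.61, SE 0.25, adjusted p = 2.07e-05). Isg15, at the levels given above, was called higher (log2 fold change 1.90, SE 0.65, adjusted p = 0.0224), but not without M number 5. Without M number 5, 21 members were higher and 2 lower.

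Between day 7 and day 3, uncoated bead cells had 4 members higher (Ifi27, Irf9, Mx1 and Stat2) and 3 lower (Gbp4, Igtp and Gbp2) of 37, where 11.9% and 10.8% of 9024 genes were. Ifi27 had 312, 253, 313, 310.4 and 259.7 CPM at day 7 and 93.9, 56.9 and 67.5 CPM at day 3, without overlap (log2 fold change 1.98, SE 0.18, adjusted p = 9.94e-05), and Igtp was -0.62 (SE 0.17, adjusted p = 0.0247) on the log2 scale. Samples of 1 M number correlated in their deviations here, and with the M number as a block 6 members were higher and 5 lower. Higher and lower counts were 2 and 2 without day 3 M number 2, 1 and 1 without day 3 M number 1, 2 and 0 without day 3 M number 4, 11 and 2 without day 7 M number 1, 7 and 3 without day 7 M number 2, and 3 and 1 without day 7 M number 3.

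DC-activated uncoated cells were below day 0 in more members than above it. At DC day 3, 6 of 31 members were higher and 16 lower (36.3% and 37.5% of 9259 genes), with a median log2 fold change of -0.70; at DC day 4, 7 of 30 were higher and 14 lower (26.0% and 28.9% of 9365 genes), with a median of -0.38. These comparisons share the day 0 libraries with those of bead cells. Irf7 had 5.79, 3.76, 4.199 and 6.51 CPM at DC day 3 and 30.7, 31.4, 23.9, 30.96 and 38.97 CPM at DC day 4, against 102, 162 and 169 CPM at day 0, with no overlap at either day. Its log2 fold changes were -4.83 (SE 0.21, adjusted p = 1.26e-12) and -2.32 (SE 0.15, adjusted p = 3.45e-10). At days 3 and 4, the log2 fold changes of Isg15 were -3.09 and -3.25, those of Oasl2 -5.86 and -5.55, and those of Rnf213 -3.09 and -1.47, all called. All 4 signalling factors fell at DC day 3, and 3 of 4 at DC day 4, where Stat2 was higher than at day 0 (log2 fold change 0.58, SE 0.15, adjusted p = 0.00279).

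Of the GTPases, 4 of 7 tested were above day 0 at DC day 3 (36.3% of all genes) and 3 of 6 at DC day 4 (26.0%), against 10 of 10 at bead day 3 (29.9%). The numbers tested differ, since a member low at day 0 is tested only where the activated samples hold enough counts. The 3 counts are therefore not like for like. Igtp was higher by a log2 fold change of 3.01 (SE 0.15, adjusted p = 4.8e-12) at DC day 3 and 1.88 (SE 0.15, adjusted p = 3.62e-09) at DC day 4, at the levels given above. Gbp5 was higher at DC day 3 (log2 fold change 3.29, SE 0.37, adjusted p = 2.1e-07), and so was Gbp2 (log2 fold change 1.49, SE 0.31, adjusted p = 4.42e-04). Samhd1 was lower than day 0 at DC day 3 (log2 fold change -0.41, SE 0.14, adjusted p = 0.0134) and higher at DC day 4 (log2 fold change 0.53, SE 0.13, adjusted p = 0.00154). DC day 4 samples hold DCs120 libraries alone, so day and title number are mixed in this contrast, as in that of Stat2 above. The log2 fold changes of Eif2ak2 and Ifi47 at DC day 3, positive in the summed libraries, were negative with DCs30 libraries alone.

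Set against beads at day 3, DC activation went with lower levels of most members in both kinds of wells. In coated wells 29 of 31 members were lower in DC cells and 0 higher, where 20.7% of 9258 genes were lower and 18.6% higher, with a median log2 fold change of -1.89 over the members and 0.02 over all genes. In uncoated wells 22 of 31 were lower and 0 higher, where 13.8% of 8907 genes were lower and 11.4% higher, with a median of -1.09. No member was higher by DESeq2 either, and at an unadjusted p under 0.05 by edgeR 1 was in coated and 0 in uncoated wells. All 29 calls in coated wells held when each sample was left out, and without coated bead M number 5, 1 member was higher. In uncoated wells, with 4 DC and 3 bead samples, 16 of the 22 calls held in every such fit, and 17 to 22 members were lower. The summed DC samples also mix title numbers unevenly between coated and uncoated wells, as given above. Markers of other cells differed in this comparison too. NK cell markers, nearly all Eomes, summed to 0.874 to 6.56 CPM in coated DC cells against 229 to 482 CPM in coated bead cells, and to 1.88 to 5.89 CPM in uncoated DC cells against 283 to 413 CPM in uncoated bead cells. CD4 T cell markers, nearly all Foxp3, summed to 0 to 1.84 CPM in coated DC cells against 17.01 to 32.5 CPM in coated bead cells, and to 0 to 0.884 CPM in uncoated DC cells against 25.6 to 65.4 CPM in uncoated bead cells. DC markers, mostly Batf3, summed to 358 to 434 CPM in coated DC cells against 10.6 to 29.4 CPM in coated bead cells, and to 205 to 344 CPM in uncoated DC cells against 32.7 to 54.2 CPM in uncoated bead cells. The part of other cells in the difference between the activations was not tested.

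Igtp had 203, 196, 182, 206 and 220.1 CPM in coated DC cells against 596, 813, 882, 802 and 630.3 CPM in coated bead cells (log2 fold change -1.89, SE 0.11, adjusted p = 3.38e-09). Gbp4 had 2.25, 1.31, 2.62, 1.16 and 3.78 CPM in coated DC cells and 44.1, 37.9, 45.1, 56.96 and 27.1 CPM in coated bead cells (log2 fold change -4.24, SE 0.28, adjusted p = 1.78e-08). Isg20, an exonuclease of single-stranded RNA, had 3.83, 2.100, 2.62, 3.49 and 4.05 CPM in coated DC samples against 39.4, 69.6, 92.3, 75.2 and 46.9 CPM in coated bead cells (log2 fold change -4.29, SE 0.26, adjusted p = 8.36e-09), and Stat2 had 17.3, 13.6, 13.98, 18.2 and 13.5 CPM in coated DC samples against 43.1, 37.9, 40.7, 41.7 and 46.9 CPM in coated bead cells (log2 fold change -1.47, SE 0.14, adjusted p = 9.55e-07). None of these overlapped. In uncoated wells the same 4 genes had log2 fold changes of -1.67 (SE 0.10, adjusted p = 1.55e-08), -4.04 (SE 0.28, adjusted p = 6.62e-08), -2.82 (SE 0.28, adjusted p = 1.24e-05) and -0.95 (SE 0.23, adjusted p = 0.00564). Gbp5 was not called in either, with 14.9, 14.7, 13.98, 19.4 and 22.4 CPM in coated DC cells and 23.9, 17.00, 33.7, 12.8 and 31.3 CPM in coated bead cells (log2 fold change -0.48, SE 0.25, adjusted p = 0.133).

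Ifng, which encodes interferon gamma, ran the other way. It averaged 241 ± 26.4 CPM in coated DC cells of day 3 and 7.76 ± 3.77 CPM in coated bead cells (SD, n = 5 each; log2 fold change 4.95, SE 0.23, adjusted p = 2.47e-09). In uncoated wells it averaged 178 ± 33.8 CPM in DC cells (SD, n = 4) and 28.3 ± 1.42 CPM in bead cells (SD, n = 3; log2 fold change 2.62, SE 0.19, adjusted p = 1.73e-07). At DC day 4 Ifng was higher in coated cells, at 34.8 ± 18.3 CPM, than in uncoated cells, at 11.8 ± 4.91 CPM (SD, n = 5 each; log2 fold change 1.61, SE 0.36, adjusted p = 0.0118). The other interferon genes of the list (Ifnb1, Ifna2, Ifna4, Ifnl3) were not analysed here.

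Within DC day 3, libraries titled DCs120 were above those titled DCs30 in most members. In a fit with terms for coating and M number, 14 of 23 members were higher and 1 was lower, where 6.50% of 8773 genes were higher and 5.36% lower, and the median log2 fold change was 0.62 over the members and 0.01 over all genes. The 7 pairs with 1 M number and coating had 20 to 34 of the 40 members higher in the DCs120 library. Ifi27 had 20.9, 80.1 and 114 CPM in DCs120 libraries and 5.11, 10.1 and 20.5 CPM in DCs30 libraries (lowest, median and highest of 8 each), higher in 7 of 7 pairs, with no overlap (log2 fold change 2.65, SE 0.22, adjusted p = 1.4e-06). Zbp1 had 32.3, 61.8 and 67.8 CPM in DCs120 and 13.4, 33.4 and 42.96 CPM in DCs30 libraries and Samhd1 had 145, 214 and 279.6 CPM in DCs120 against 110.5, 129 and 174 CPM in DCs30 libraries, both higher in 7 of 7 pairs and overlapping over all libraries. Their log2 fold changes were 0.91 (SE 0.10, adjusted p = 2.93e-06) and 0.63 (SE 0.08, adjusted p = 1.17e-05).

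Eif2ak2 had 6.93, 24.5 and 35.6 CPM in DCs120 and 5.11, 9.68 and 14.01 CPM in DCs30 libraries, higher in 6 of 7 pairs (log2 fold change 1.28, SE 0.20, adjusted p = 1.51e-04). Stat2 had 16.2, 18.2 and 30.2 CPM in DCs120 against 7.49, 10.8 and 17.7 CPM in DCs30 libraries, also higher in 6 of 7 pairs (log2 fold change 0.90, SE 0.21, adjusted p = 0.00601). Parp14, Bst2 and Igtp rose by 0.91, 0.42 and 0.42 on the log2 scale, each higher in 7 of 7 pairs. Gbp2 was the member that was lower, with 23.1, 40.3 and 64.9 CPM in DCs120 and 26.8, 52.9 and 93.9 CPM in DCs30 libraries and higher in 2 of 7 pairs (log2 fold change -0.37, SE 0.11, adjusted p = 0.0237); the call was lost without M number 1, 4 or 5. The number of higher members was 9 without M number 5.

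The labels do not say what the title numbers mean. Libraries of the 2 kinds also differed in other markers. MHC class II genes summed to 132.8, 213.4 and 1078 CPM in DCs120 and 83.0, 129.3 and 492.2 CPM in DCs30 libraries (lowest, median, highest of 8), and myeloid markers to 224.3, 270.5 and 303.0 CPM in DCs120 against 121.8, 172.8 and 213.7 CPM in DCs30 libraries, without overlap. Cst3, which many cells express, made up most of the myeloid sum. The DC markers summed to 264.9, 393.8 and 498.3 CPM in DCs120 against 139.4, 304.9 and 414.2 CPM in DCs30 libraries, mostly from Batf3, with 2 of 7 (Cd209a and Clec10a) at 0 in all DC day 3 samples. The part of other cells in the difference was not tested.

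**Figure D5:**
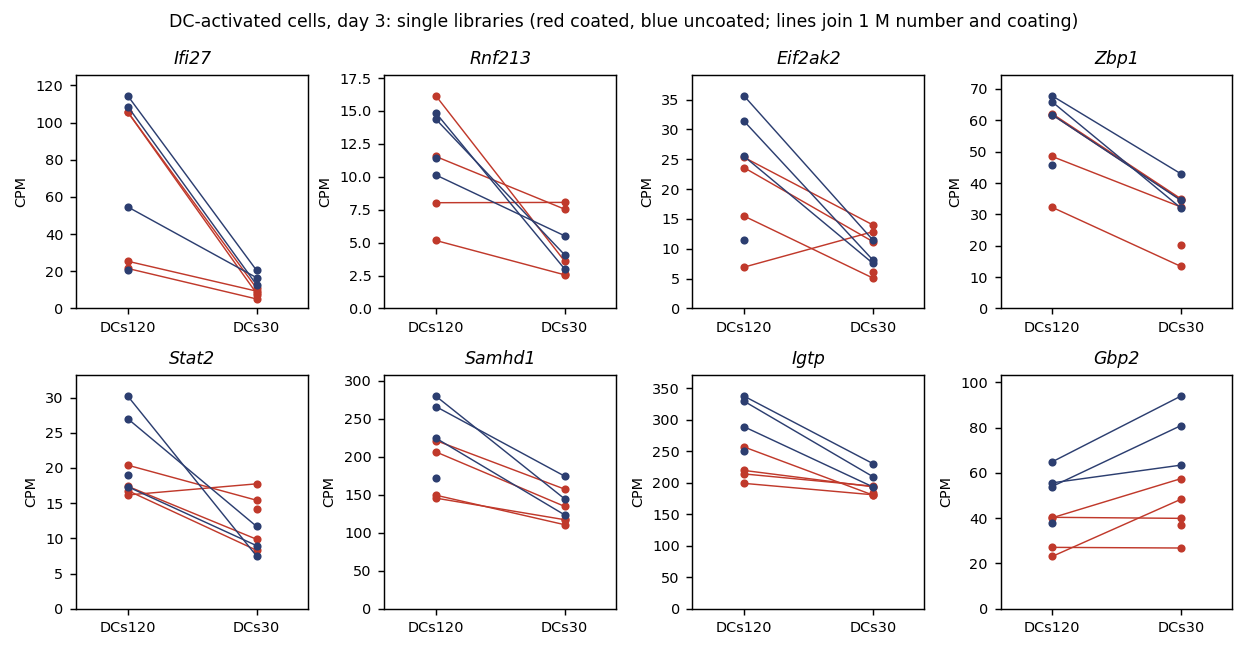
CPM (vertical axes from 0) of 8 members in single DC day 3 libraries titled DCs120 (left) and DCs30 (right); lines join libraries with 1 M number and coating (red coated, blue uncoated). Ifi27, Zbp1, Samhd1 and Igtp are higher in DCs120 in 7 of 7 pairs, and Gbp2 in 2 of 7.

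Other genes of the pathway were counted from lists of named genes that are no members. Of 53 further interferon-induced genes, 31 could be tested in the coating comparison at DC day 4, where 16 were lower in coated cells and 0 higher, with all 31 log2 fold changes negative (median -0.76). Of all genes tested there, 8.92% were lower and 9.46% higher. The smallest p were those of Gbp8 (log2 fold change -1.21, SE 0.18, adjusted p = 0.0015) and Ifi203 (log2 fold change -1.05, SE 0.17, adjusted p = 0.00183), both interferon-induced in mouse. Among receptor and signalling genes, lower ones included the receptor chains Ifnar1 (log2 fold change -0.54, SE 0.14, adjusted p = 0.0162) and Ifnar2 (log2 fold change -0.53, SE 0.15, adjusted p = 0.0248) and the kinase Jak2. Of 7 sensing genes 2 were lower, the kinase gene Ikbke (log2 fold change -0.99, SE 0.17, adjusted p = 0.00253) and Ddx58, which encodes the RNA sensor RIG-I (adjusted p = 0.00461), and of 6 other IRF factors 0 were called.

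The same list of further interferon-induced genes had 1 of 26 lower and 0 higher on coating at DC day 3 (Uba7; 0.224% of all genes lower), 0 of 32 called at bead day 3 and 0 of 32 at bead day 7, where all 32 had negative log2 fold changes (median -0.84). In DC against bead cells at day 3 it had 25 of 29 lower and 1 higher in coated wells and 16 of 27 lower and 1 higher in uncoated wells. Of all genes, 20.7% were lower in coated and 13.8% in uncoated wells. In DCs120 against DCs30 libraries 8 of 18 were higher and 1 lower (6.50% and 5.36% of all genes), with Epsti1 at 1.22 (SE 0.11, adjusted p = 1.1e-07) and Oas3 at 2.57 (SE 0.23, adjusted p = 1.54e-07), and Slfn2 lower at -1.33 (SE 0.14, adjusted p = 1.95e-05) on the log2 scale. Ifngr1, a receptor chain of interferon gamma, was higher in DCs120 libraries as well (log2 fold change 1.59, SE 0.11, adjusted p = 7.74e-09). Between bead day 7 and day 3, 14 of 36 further interferon-induced genes rose and 0 fell, where 11.9% of all genes rose and 10.8% fell.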

How the data were processed

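The deposited table holds whole-number counts of 14626 genes in 52 libraries, and every gene reached 6 counts or more in some library. The authors made these counts with bcl2fastq, cutadapt, STAR 2.4.2a, HTSeq and DESeq2 on mm10, per the submitters' processing notes, which give no roles. Whether reads of 1 molecule were collapsed is not given in the sources used here, so counting error is a lower limit. The deposited log2 fold changes and adjusted p-values of the authors' 4 coating comparisons were used only where named. A further 104 columns of normalized values were not used.

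Libraries of DC day 3 that share an M number and a coating were added up, which left 9 samples of 16 libraries. For each of 14 comparisons, edgeR 4.0.16 in R 4.3.3 kept genes by filterByExpr (at least 10 counts, total of 15), scaled libraries by TMM and ran its two-sided quasi-likelihood F-test (robust). P-values were adjusted by Benjamini-Hochberg across every gene in the fit and called under 0.05. CPM values use TMM factors over all samples. SE is the standard error of the log2 fold change. Nothing in the labels makes the M numbers separate animals, and the p-values therefore cover only how far these samples spread. No pair of 142 within-group libraries was identical. Deviations from group means correlated between all samples of 1 M number by over 0.1 at DC day 4 (5 pairs, 0.131 to 0.346) and between uncoated bead days 7 and 3 (3 pairs, 0.134 to 0.265). The 2 pairs of uncoated DC against bead cells of day 3 also did (0.158 and 0.161).

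Members, lists and comparisons were chosen with earlier results of these data known. All members may be named; other genes were named by list, up to 4 a comparison; 1 gene of the signalling list is not reported here. Alternatives were DESeq2 size factors, no filter, the DESeq2 1.42.0 Wald test, the M number as a block, DCs120 or DCs30 libraries alone, and leaving out each sample (each M number in DCs120 against DCs30). The test was checked on simulated counts.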

Additional observations from a re-analysis of the deposited data

Results flagged for a closer look

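Outliers were sought in 104 groups of 4 to 9 samples (the 12 members recomputed throughout and the member sum). The rule flags about 1 in 20 groups of independent normal values, which CPM of related members are not. In 10 groups, 1 sample lay far from the rest. Of these, 6 were uncoated bead M number 5 of day 7, with a member sum of 10522 CPM (others 3261 to 5239 CPM). It had 159.2 CPM of Stat2 (others 51.9 to 80.9), 1159 CPM of Isg15 (others 29.1 to 254.7), 481.4 CPM of Isg20 (others 66.7 to 144.2), 251.8 CPM of Ifit3 (others 0 to 66.4) and 1385 CPM of Bst2 (others 409.2 to 626.7). Irf1 was high in uncoated bead M number 2 of day 7, at 437.9 CPM (others 245.7 to 288.0), and in day 0 M number 2, at 413.5 CPM (others 249.9 to 332.1). Irf9 was low in coated bead M number 3 of day 7, at 44.0 CPM (others 61.8 to 65.1). Ifit3 was at 0.755 CPM in uncoated DC day 3 M number 1, from counts of 1 and 2 in its libraries, and at 0 in the others.

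The coating effect on Samhd1 differed between DC day 3 and bead day 3 by -0.74 on the log2 scale, by the test of the difference itself. Title numbers are unevenly spread over the coating at DC day 3.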

How the results depend on the processing

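DESeq2 size factors took the 1 lower member of the DC day 3 against bead day 3 difference to 0, and neither they nor leaving out the filter moved another count by over 1.5 times. DESeq2's Wald test called 5 lower members on coating at DC day 3, 18 at bead day 7, 1 lower at bead day 7 against day 0, 14 higher at bead day 7 against day 3, and 2 lower in each difference of coating effects. With the M number as a block, coating gave 2 higher at DC day 4, 4 lower at DC day 3, 1 higher at bead day 3 and 5 lower at bead day 7. The same block gave 1 lower at bead day 7 and 3 higher at DC day 4 against day 0, 5 lower at bead day 7 against day 3, and 3 and 4 lower in the differences from DC day 3 and from bead day 3. M numbers were taken to pair samples at DC day 4 and in bead day 7 against day 3. There, at least 3 pairs all correlated by over 0.1. Elsewhere samples share a number, and pairing is neither stated by the labels nor excluded. Without the block, 0 members were lower in DCs120 against DCs30. On coating at DC day 3, DCs120 libraries alone gave 0 lower, DCs30 alone 0, and the title number as a covariate 1. With DCs30 libraries alone, DC day 3 had 3 members above day 0, and the log2 fold changes of Eif2ak2 and Ifi47 were -0.24 and -0.082. The causes were not tested.

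Leaving out 1 sample gave 0 to 2 higher on coating at DC day 4, 0 to 4 lower at DC day 3 and 0 to 12 lower at bead day 7. Against day 0 it gave 11 to 17 higher at bead day 3 and 0 to 2 lower at bead day 7. It gave 0 to 1 higher in coated DC against bead cells, and 1 to 11 higher and 0 to 3 lower at bead day 7 against day 3. The differences of coating effects gave 0 to 1 higher and 0 to 2 lower between DC days, and 0 to 2 lower between DC and bead cells. In DCs120 against DCs30, all libraries of 1 M number were left out at a time, which gave 9 to 16 higher and 0 to 1 lower. Chosen after seeing the data, leaving out the DC day 3 library with the fewest counts gave 3 lower members. Members with a few counts per library could not be tested, and Ifit3, Oas1a and Rsad2 were tested in no comparison.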
